A study of Danio rerio with 15 samples.

Results

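Genes of skeletal muscle were followed through zebrafish brain libraries. They are 9 of the 14971 gene symbols in the deposited count tables, chosen by name with earlier results of these data known. The 9 are actc1b, acta1b, tnnt3b, myhz1.1, mylpfa, pvalb1, eno3, ampd1 and ckma. All 9 were present. The zebrafish (Danio rerio) were adults, exposed to dibromoacetonitrile (DBAN) over 56 days before the brain was taken. DBAN is a by-product of disinfecting water that holds bromide. The 5 groups of 3 libraries each were made from poly(A) RNA: females at 0 µg/L, females at 40 µg/L, females at 200 µg/L, males at 40 µg/L and males at 0 µg/L. No strain, genotype or age is given, and the number of fish in a library is unstated. A p-value therefore measures only how these libraries scatter, which may be technical. Bulk tissue was sequenced, so more cells of a type and more RNA per cell cannot be told apart.

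Skeletal muscle shortens when myosin heavy chains of the thick filament pull on actin of the thin filament. Troponin on the thin filament answers to calcium, parvalbumin soaks the calcium up again in fast fibres, and creatine kinase, enolase and AMP deaminase keep ATP supplied. Fast fibres and slow fibres build these parts from different gene copies. Neurons and glia use other copies, such as beta actin, brain creatine kinase and neuronal enolase. Head muscle lies close to the brain, and a dissected brain can carry some of it.

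The 15 libraries held 10488947 to 49388334 counts. Levels are given in CPM, the counts scaled to library size, with TMM factors over all 15 libraries. Small counts piled up at multiples of 4, which took 40.5% to 49.6% of the counts from 1 to 40 in a library. Each library was also given a floor, 3 times the median count of its own rare genes, which most other libraries did not count. A level under the floor is not clearly above such genes, but it can still stand for many reads. In counts the floor was 24 to 27 in male controls and 117, 121.5 and 396 in males at 40 µg/L. Replicate 3 of males at 40 µg/L had the highest floor. Multiples of 4 took 47.46%, 45.72% and 42.86% in replicates 1, 2 and 3 of males at 40 µg/L, against 40.52% to 44.52% in male controls. The floor was 0.490 to 0.608 CPM in male controls and 0.733 to 4.78 CPM in females. In males at 40 µg/L it was 4.56, 2.70 and 12 CPM, each above every male control. The same 3 male libraries had 3900, 3123 and 5172 genes at 0, against 1435, 1637 and 1831 genes at 0 in male controls.

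The 9 genes fell into 2 kinds by where they were counted. eno3, myhz1.1 and ampd1 lay above the floor in all 15 libraries. The other 6 did not, and 5 of them, actc1b, tnnt3b, mylpfa, ckma and pvalb1, had their highest level in replicate 1 of females at 200 µg/L.

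**Figure D1:**
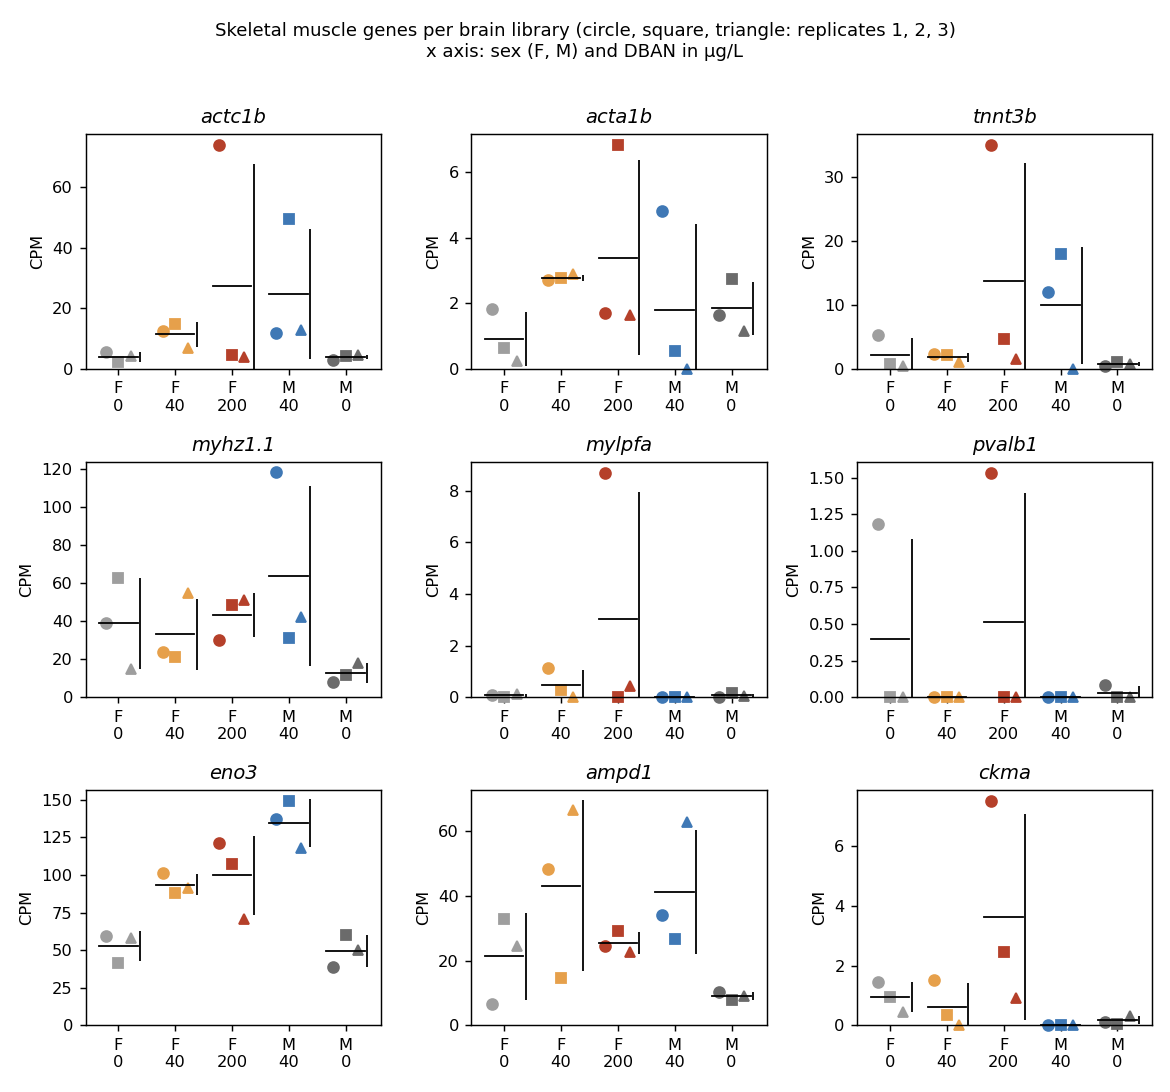
Level of each of the 9 muscle genes in CPM (y axis, from 0, a scale of its own per gene) in the 5 groups (x axis, sex and DBAN in µg/L); each symbol is 1 library, with circle, square and triangle for replicates 1, 2 and 3. In actc1b 1 female library at 200 µg/L stands at 74.0 CPM and the other libraries of its group at 4.50 and 3.82 CPM, whereas in eno3 the 3 libraries of a group lie close together.

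The thin filament is represented by 2 actins and a troponin. actc1b encodes an alpha actin of striated muscle. It had 5.65, 2.11 and 4.08 CPM in females at 0 µg/L, 12.4, 14.9 and 6.83 CPM in females at 40 µg/L, and 74.0, 4.50 and 3.82 CPM in females at 200 µg/L. In males it had 11.7, 49.6 and 12.8 CPM at 40 µg/L, against 3.04, 4.11 and 4.44 CPM at 0 µg/L. All libraries at 40 µg/L lay above all controls of their sex, while at 200 µg/L replicate 1 was 17.8 times the mean of the other 2 libraries of its group.

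acta1b encodes another skeletal alpha actin. It had 1.82, 0.633 and 0.245 CPM in females at 0 µg/L, 2.70, 2.78 and 2.89 CPM at 40 µg/L, and 1.70, 6.85 and 1.66 CPM at 200 µg/L. It had 4.83, 0.534 and 0 CPM in males at 40 µg/L, against 1.63, 2.74 and 1.17 CPM in male controls. The male groups overlapped, and its highest library was replicate 2 of females at 200 µg/L, not replicate 1. The 2 actins are closely related copies, so reads can be shared between them and the split is uncertain.

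tnnt3b encodes fast troponin T, which ties the troponin complex to the thin filament. It had 5.24, 0.738 and 0.408 CPM in females at 0 µg/L, 2.27, 2.23 and 0.993 CPM at 40 µg/L, and 35.1, 4.60 and 1.58 CPM at 200 µg/L. It had 11.95, 18.0 and 0 CPM in males at 40 µg/L, against 0.470, 1.13 and 0.811 CPM in male controls. Replicates 1 and 2 of the exposed males stood above every male control, whereas replicate 3 was listed at 0 under a floor of 12 CPM. Replicate 1 of females at 200 µg/L stood at 11.4 times the mean of the other 2 libraries of its group.

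The thick filament is represented by a heavy and a light chain of myosin. myhz1.1 encodes a fast myosin heavy chain. It had 38.9, 62.8 and 14.8 CPM in females at 0 µg/L, 23.6, 21.1 and 54.6 CPM at 40 µg/L, and 30.2, 48.5 and 51.0 CPM at 200 µg/L. In males it had 118, 31.0 and 42.2 CPM at 40 µg/L, against 7.97, 11.7 and 18.1 CPM at 0 µg/L. The female groups overlapped at every dose, and the male groups did not overlap. Its neighbour myhz1.2, a near-identical copy 5659 bases away, had 14.8, 4.47 and 5.45 CPM in males at 40 µg/L, against 0.858, 2.06 and 2.41 CPM in male controls, and reads can be split between the copies.

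mylpfa encodes the fast regulatory light chain, a partner of the heavy chain in the same filament. It had 0.0911, 0 and 0.122 CPM in females at 0 µg/L, 1.13, 0.275 and 0 CPM at 40 µg/L, and 8.69, 0 and 0.415 CPM at 200 µg/L. It was at 0 in all 3 males at 40 µg/L, and at 0, 0.144 and 0.0507 CPM in male controls. Thus only replicate 1 of females at 200 µg/L, with 159 counts, was above its floor of 1.64 CPM. No fold is given in males, since both groups were at or under the floor.

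pvalb1 encodes a parvalbumin, the calcium buffer of fast fibres. It was counted in 3 of the 15 libraries, at 1.53 CPM in replicate 1 of females at 200 µg/L, at 1.19 CPM in replicate 1 of females at 0 µg/L and at 0.0817 CPM in replicate 1 of males at 0 µg/L. It was at 0 in all 6 libraries at 40 µg/L. Only the female control value lay above its library's floor, which was 1.09 CPM.

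Of the energy genes, eno3 encodes beta enolase, the muscle form of a glycolytic enzyme. It had 59.2, 41.4 and 58.2 CPM in females at 0 µg/L, 101, 88.3 and 91.2 CPM at 40 µg/L, and 121, 108 and 70.7 CPM at 200 µg/L. It had 137, 149 and 118 CPM in males at 40 µg/L, against 39.0, 60.3 and 49.9 CPM in male controls. In each of the 3 exposed groups every library lay above every control of its sex. The averages were 93.6 ± 6.80 CPM in females at 40 µg/L and 99.8 ± 26.1 CPM in females at 200 µg/L, against 52.9 ± 10.0 CPM in female controls (SD, n = 3 each).

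ampd1 encodes the muscle AMP deaminase, which removes AMP when ATP is spent. It had 6.47, 33.1 and 24.5 CPM in females at 0 µg/L, 48.5, 14.6 and 66.6 CPM at 40 µg/L, and 24.7, 29.4 and 22.7 CPM at 200 µg/L. In males it had 34.3, 26.7 and 62.9 CPM at 40 µg/L, against 10.4, 7.98 and 9.23 CPM at 0 µg/L. The female groups overlapped at each dose, and the male groups were apart.

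ckma encodes the muscle creatine kinase, which stores and releases phosphate for ATP. It had 1.46, 0.949 and 0.449 CPM in females at 0 µg/L, 1.52, 0.336 and 0 CPM at 40 µg/L, and 7.49, 2.44 and 0.913 CPM at 200 µg/L. It was at 0 in all 3 males at 40 µg/L, and at 0.123, 0.0617 and 0.330 CPM in male controls, which are all under their floors. Replicate 1 of females at 200 µg/L again stood highest. ckma and mylpfa are also listed on alternative contigs, where their reads can be placed a second time.

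In males the libraries at 40 µg/L were compared with those at 0 µg/L. Of the 6 muscle genes tested 4 passed as higher at 40 µg/L: eno3, ampd1, myhz1.1 and actc1b. eno3 was higher by 1.44 ± 0.21 on the log2 scale, a fold of 2.71 (edgeR's quasi-likelihood test, Benjamini-Hochberg adjusted p = 0.0113). ampd1 was higher by 2.16 ± 0.38, a fold of 4.48 (edgeR adjusted p = 0.0164). myhz1.1 was higher by 2.34 ± 0.57, a fold of 5.06 (edgeR adjusted p = 0.0400), and actc1b by 2.68 ± 0.67, a fold of 6.42 (edgeR adjusted p = 0.0413). Errors of log2 fold changes are standard errors.

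All 4 were higher in 3 of 3 exposed males than in any control male. For actc1b, replicate 3 at 40 µg/L had 12.8 CPM, only just above its floor of 12 CPM. Of all 12454 genes tested in males, 15.6% passed the test in either direction and 8.38% passed as higher, and 17.0% had all exposed libraries above all controls. The muscle genes and the lists were chosen with earlier results known, so these shares give a background and no test of the set. The averages were 135 ± 15.9 CPM at 40 µg/L against 49.7 ± 10.6 CPM at 0 µg/L for eno3, and 41.3 ± 19.1 against 9.21 ± 1.22 CPM for ampd1 (SD, n = 3 each). They were 63.8 ± 47.5 against 12.6 ± 5.14 CPM for myhz1.1, and 24.7 ± 21.6 against 3.87 ± 0.729 CPM for actc1b (SD, n = 3 each). Of the 2 tested genes that did not pass, tnnt3b differed by 3.63 ± 1.88 (edgeR adjusted p = 0.252) and acta1b by -0.07 ± 1.89 (edgeR adjusted p = 0.986). mylpfa, ckma and pvalb1 were too rare to be tested.

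For 3 of the 4 genes the male call did not hold without some single libraries. The number of all genes that passed in males also moved widely between these fits, as given below. Whether the muscle genes lost calls more readily than other genes was not tested. eno3 passed whichever 1 of the 6 libraries was left out. ampd1 missed the threshold without replicate 1, 2 or 3 of the male controls (adjusted p = 0.0680, 0.0709 and 0.0623). myhz1.1 missed it whichever control was left out (adjusted p = 0.149, 0.130 and 0.0773), without replicate 1 at 40 µg/L, where its log2 fold change was 1.53 (adjusted p = 0.0668), and without replicate 3 at 40 µg/L (adjusted p = 0.0516). actc1b missed it whichever control was left out (adjusted p = 0.157, 0.127 and 0.120) and without replicate 2 at 40 µg/L, where its log2 fold change was 1.64 (adjusted p = 0.0668). tnnt3b passed without replicate 3 at 40 µg/L, the library listed at 0 (4.21, adjusted p = 0.0290). With the replicate number as a block, myhz1.1 and actc1b missed the threshold (adjusted p = 0.0913 and 0.0678), and actc1b also did with library totals alone (adjusted p = 0.0574) and with all 15 libraries in the fit (adjusted p = 0.0672).

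**Figure D2:**
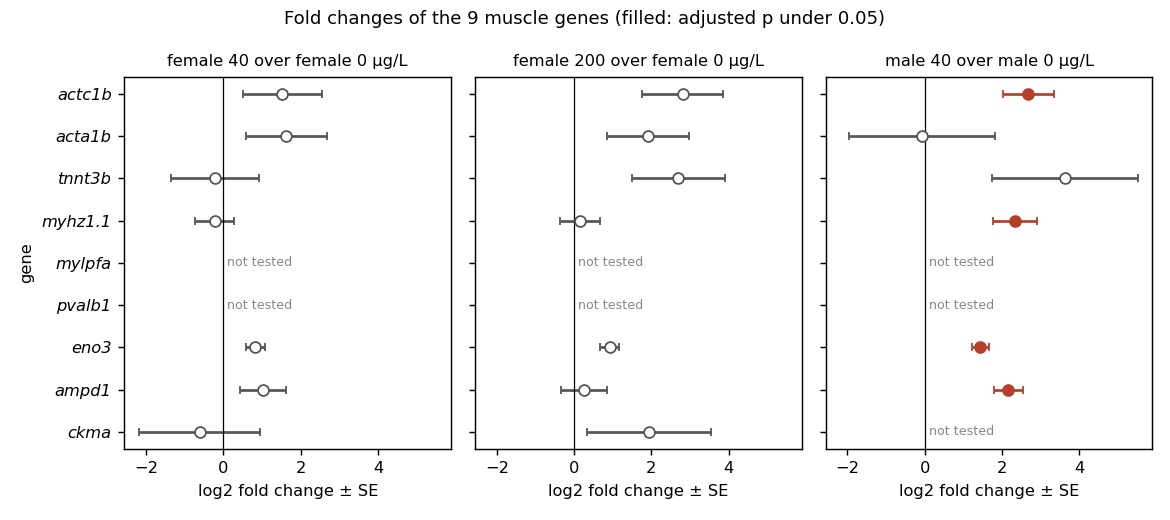
Log2 fold change of each muscle gene (x axis, ± SE) in females at 40 µg/L over controls, females at 200 µg/L over controls and males at 40 µg/L over controls; filled points passed at an adjusted p under 0.05. The 4 filled points are eno3, ampd1, myhz1.1 and actc1b in males, and no point is filled in females.

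Few other muscle genes passed in exposed males. The 4 further lists of skeletal muscle genes (other fast sarcomere genes, excitation-contraction coupling, muscle energy metabolism and slow muscle) held 109 genes in the tables, 78 of them tested in males. Among the 78, 2 passed as higher and 3 as lower, where 8.38% of all genes passed as higher and 15.6% in either direction. The listed genes thus passed less often than all genes. The lists do not follow muscle alone: in male controls aldoaa averaged 1154 CPM and ryr1b 543 CPM, against 0.171 CPM of ckma and 0.0649 CPM of mylpfa. Their median log2 fold change was 0.37 against -0.16 over all genes tested. smyd1b, a chaperone partner for folding myosin, rose by 1.91 ± 0.49 (edgeR adjusted p = 0.0445). gpd1b, a cytosolic glycerol-3-phosphate dehydrogenase, rose by 0.98 ± 0.19 (edgeR adjusted p = 0.0189). The 3 called lower were the glycogen phosphorylase gene pygmb, the phosphorylase kinase gene phkg1a and the fast troponin I gene tnni2b.2. pygmb averaged 136 CPM in males at 40 µg/L against 379 CPM in male controls, and phkg1a 6.32 against 28.4 CPM. tnni2b.2 was at 0 in all 3 males at 40 µg/L, against 0.658 to 0.913 CPM in male controls. Those control levels lie under the floors of the exposed males, 2.70 to 12 CPM, so its fall is uncertain. None of the 12 slow muscle genes tested passed in edgeR, where 1 had an unadjusted p under 0.05 and DESeq2 called 1. None of the 15 coupling genes tested passed in edgeR, where 3 had an unadjusted p under 0.05 and DESeq2 called 2. Over all 12454 genes 3838 had an unadjusted p under 0.05 and DESeq2 called 3072.

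Genes that neurons and most other cells use in place of these muscle copies moved in both directions in males. Of 21 such counterparts tested 1 passed as higher and 4 as lower, beside 15.6% of all genes in either direction. The 1 that rose was actb2, a beta actin, by 0.51 ± 0.12. The parvalbumin genes pvalb7 and pvalb6 fell by 2.07 and 2.48 on the log2 scale, and the non-muscle myosin light chain gene myl12.1 fell by 0.73. tpm4b, a tropomyosin, was called lower and was at 0 in all 3 exposed males, against 1.71 to 3.07 CPM in male controls. With floors of 2.70 to 12 CPM in the exposed males, the fall of tpm4b is uncertain. eno2, the neuronal enolase, differed by 0.06 ± 0.12 (edgeR adjusted p = 0.800), with 1069, 1088 and 1126 CPM at 40 µg/L against 1017, 986 and 1141 CPM at 0 µg/L.

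Markers of other tissues also differed between the male groups, where 8.38% of all genes passed as higher and 15.6% in either direction. Of 12 skin genes tested 4 rose (krt91, krt94, krt97 and krt15, all keratins), and the skin list summed to 360.1 to 416.1 CPM in males at 40 µg/L against 116.6 to 136.8 CPM in male controls. The skin marker icn did not rise, with an average of 54.7 CPM at 40 µg/L against 53.9 CPM at 0 µg/L. The skin markers icn2 and cyt1 were at 0 in all 3 exposed males, whose floors were 2.70 to 12 CPM. Of 20 genes of connective tissue, cartilage and bone 4 rose (col1a1b, col5a2a, bglap and col11a1a), and that list summed to 913.8 to 1327 CPM at 40 µg/L against 360.7 to 549.1 CPM at 0 µg/L. Of 26 neuron and glia genes 2 rose and 9 fell, and that list summed to 13310 to 16020 CPM at 40 µg/L against 18430 to 18630 CPM at 0 µg/L. Female controls summed to 14430 to 15760 CPM for neurons and glia, so exposed males lay near them and male controls above both. The part that these lists and the higher floors of the exposed males have in the muscle genes was not tested.

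In females at 40 µg/L against controls none of the 7 muscle genes tested passed in edgeR, where 0.238% of 12601 genes passed. eno3, 1 gene, had an unadjusted p under 0.05. DESeq2 called the same 1 gene and gave no adjusted p for actc1b, acta1b, tnnt3b and ckma. eno3 was higher by 0.82 ± 0.24 (edgeR adjusted p = 0.137), actc1b by 1.53 ± 1.01 (edgeR adjusted p = 0.555), acta1b by 1.63 ± 1.05 (edgeR adjusted p = 0.536) and ampd1 by 1.02 ± 0.60 (edgeR adjusted p = 0.484). actc1b, acta1b and eno3 had all 3 exposed libraries above all 3 controls, as had 11.3% of all genes tested. ckma, myhz1.1 and tnnt3b differed by -0.62, -0.23 and -0.22, each with an SE larger than the difference. Of the 90 other skeletal muscle genes tested none passed in edgeR, 7 had an unadjusted p under 0.05 and DESeq2 called 5. Over all 12601 genes these numbers were 1933 and 795, so the share among the muscle genes was not above that of all genes.

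In females at 200 µg/L against controls none of the 7 genes passed in edgeR, where 0.0556% of genes passed. actc1b, tnnt3b and eno3, 3 genes, had an unadjusted p under 0.05. DESeq2 called eno3 alone and gave no adjusted p for actc1b, tnnt3b, acta1b and ckma. eno3 was higher by 0.92 ± 0.24 (edgeR adjusted p = 0.195) and was the 1 muscle gene with all libraries at 200 µg/L above all controls, as had 7.48% of all genes. actc1b was higher by 2.80 ± 1.06 (edgeR adjusted p = 0.374) and tnnt3b by 2.70 ± 1.21 (edgeR adjusted p = 0.457). Without replicate 1 at 200 µg/L the difference was 0.08 for actc1b and 0.54 for tnnt3b, and it was 0.75 for eno3 (edgeR adjusted p = 0.977, 0.911 and 0.277). Of the 90 other skeletal muscle genes tested none passed in edgeR, 15 had an unadjusted p under 0.05, 13 of them higher, and DESeq2 called 4. Over all 12601 genes 1365 had an unadjusted p under 0.05, 576 of them higher, and DESeq2 called 327.

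Between the female doses none of the 7 genes passed in edgeR, where 3.93% of genes passed. tnnt3b, 1 gene, had an unadjusted p under 0.05, as had 2661 of the 12601 genes tested. DESeq2 called none of the 7, where it called 1379 of all genes, and gave no adjusted p for actc1b and ckma. tnnt3b was higher at 200 µg/L by 2.92 ± 1.22 (edgeR adjusted p = 0.205) and by 0.75 without replicate 1. actc1b was higher at 200 µg/L by 1.28 with all libraries and lower without replicate 1, at -1.45. Both doses were set against the same 3 control libraries, so their differences from controls are not independent.

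Control females were set against control males to see where the sexes start. None of the muscle genes passed in edgeR, where 4.40% of 13149 genes passed. myhz1.1, 1 gene, had an unadjusted p under 0.05, as had 2679 of all genes tested. DESeq2 called myhz1.1, among 1644 of all genes, and gave no adjusted p for acta1b, ckma and tnnt3b. myhz1.1 was higher in females by 1.63 ± 0.62 (edgeR adjusted p = 0.153), with 38.9, 62.8 and 14.8 CPM in control females against 7.97, 11.7 and 18.1 CPM in control males. ckma was the 1 muscle gene whose female controls all lay above the male ones, as did 18.9% of all genes, and all its levels in male controls were under the floor. Replicates 2 and 3 of the female controls, at 0.949 and 0.449 CPM, were also under their floors for ckma.

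Whether the difference at 40 µg/L itself differed between females and males was tested in a joined fit. No muscle gene passed in edgeR, and 0% of the 13149 genes did; 1909 genes, myhz1.1 among them, had an unadjusted p under 0.05, and DESeq2 called 456 genes but no muscle gene. For myhz1.1 the difference in females minus that in males was -2.58 ± 0.87 (edgeR adjusted p = 0.223), and for eno3 it was -0.62 ± 0.29 (edgeR adjusted p = 0.352). A difference between the sexes in the response of these genes was thus not shown. On simulated data this test recovered 1 of 100 genes changed 2-fold and 23 of 100 changed 4-fold, so it could miss most such differences.

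Replicate 1 of females at 200 µg/L carried the highest level of more than the muscle genes named here. Of the 109 other skeletal muscle genes it was the highest library for 45, or 41.3%, where it was the highest for 9.16% of all genes. These were 17 of 43 fast sarcomere genes, 11 of 21 slow genes, 11 of 25 coupling genes and 6 of 20 energy genes. Skeletal muscle was not alone in this. The same library was the highest for 12 of 19 blood genes, 11 of 21 skin genes, 11 of 24 connective tissue genes and 5 of 13 cardiac genes. It was the highest for 3 of 16 myogenic regulators and 2 of 22 brain or widely expressed counterparts. For neuron and glia genes it was the highest for 2 of 26, for eye and pineal genes 1 of 32 and for smooth muscle genes 0 of 8.

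**Figure D3:**
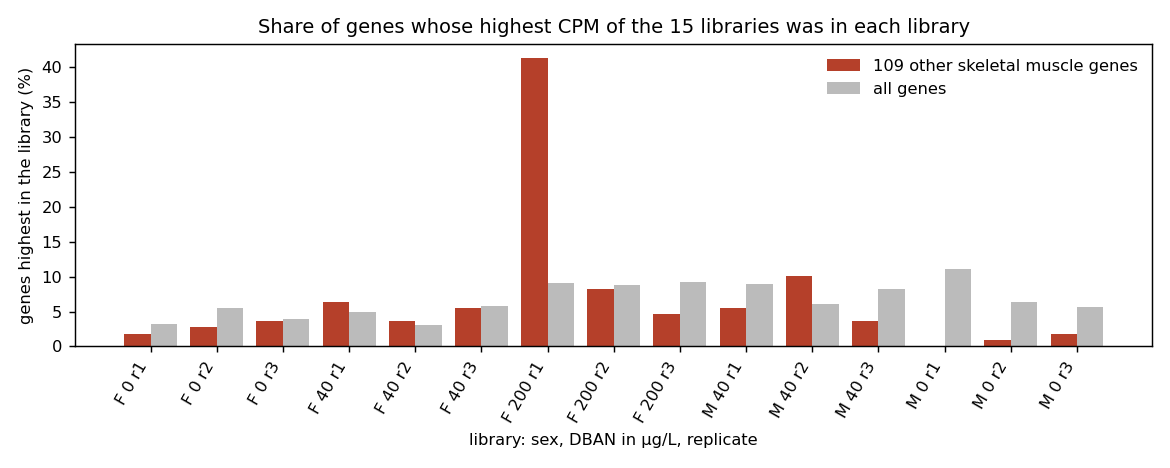
Share of genes, in percent (y axis), whose highest CPM of the 15 libraries was in each library (x axis), with 1 bar for the 109 other skeletal muscle genes and 1 for all genes. The muscle bar of replicate 1 of females at 200 µg/L reaches 41.3%, against 9.16% of all genes in the same library.

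Both fibre types were among the genes high in that library. The genes in this and the next paragraph were picked after their values had been seen. The fast genes mybpc2b, a myosin-binding protein, and myl13, a myosin light chain, had 54.7 and 14.9 CPM there. mybpc2b was at most 6.20 CPM, and myl13 at most 3.78 CPM, in the other 14 libraries. The slow genes smyhc2, a slow myosin heavy chain, and mybpc1, a slow myosin-binding protein, had 57.0 and 68.6 CPM. The muscle creatine kinase gene ckmb had 62.8 CPM, the parvalbumin gene pvalb4 28.5 CPM and the myoglobin gene mb 45.3 CPM.

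Replicate 2 of males at 40 µg/L was the next highest in several of these, with another make-up. It had 46.7 CPM of smyhc2, 43.0 CPM of mybpc1, 19.0 CPM of ckmb and 14.1 CPM of pvalb4, beside 49.6 CPM of actc1b and 18.0 CPM of tnnt3b. The fast genes mybpc2b and myl13 had 2.76 and 3.78 CPM, the myl13 level being the next highest as well. mylpfa and ckma were at 0 under a floor of 2.70 CPM. Apart from these 2 libraries smyhc2 was at most 3.15 CPM.

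**Figure D4:**
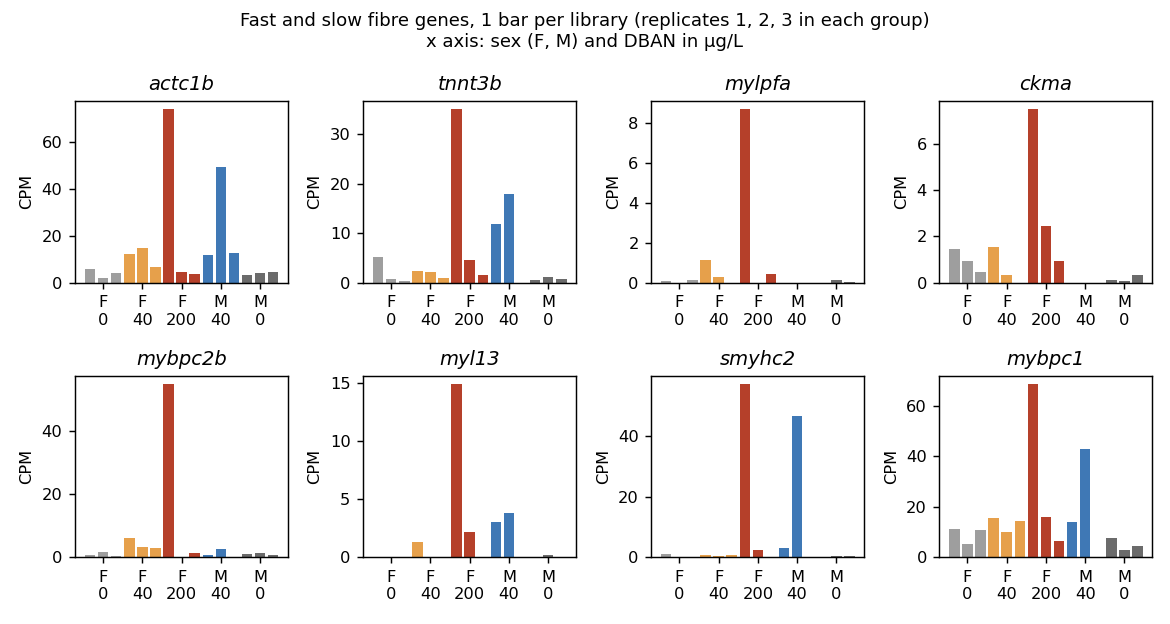
Level in CPM (y axis, from 0, a scale of its own per gene) of 4 of the 9 muscle genes (upper row) and of the fast genes mybpc2b and myl13 and the slow genes smyhc2 and mybpc1 (lower row), 1 bar per library, by sex and DBAN in µg/L (x axis). Replicate 1 of females at 200 µg/L is the tallest bar in all 8 panels. Replicate 2 of males at 40 µg/L comes next in actc1b, tnnt3b, myl13, smyhc2 and mybpc1.

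Genes of other tissues next to the brain were also high in replicate 1 of females at 200 µg/L. The skin list summed to 2793 CPM, against 152.2 and 139.9 CPM in the other libraries of its group and 104.5 to 203.8 CPM in female controls. Most of the 2793 CPM came from the keratins krt91 and krt97, with 1718 and 308.2 CPM. Of the defining markers of the skin list icn had 371.8 CPM, krt5 138.5 CPM and icn2 45.7 CPM, and cyt1 was at 0. The blood list summed to 16270 CPM, against 1426 and 2045 CPM in the other libraries of the group and 1009 to 2193 CPM in female controls. The connective tissue, cartilage and bone list summed to 1450 CPM, against 721.9 and 510.9 CPM in the other libraries and 584.9 to 774.1 CPM in female controls. The neuron and glia list stayed within 13690 to 16010 CPM over the 3 libraries of the group. The part of these tissues in the muscle levels was not tested.

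Heart markers did not accompany the muscle genes evenly. In replicate 1 of females at 200 µg/L myl7, a light chain of heart myosin, was at 0 and nppa, the atrial natriuretic peptide gene, had 0.492 CPM, under the floor of 1.64 CPM. mybpc3 and myh7ba, also on the cardiac list, had 25.2 and 25.0 CPM there, and the list summed to 74.3 CPM against 9.26 to 33.7 CPM in female controls.

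The skin sum and the muscle levels did not rise in proportion. Replicate 1 of females at 40 µg/L had 1460 CPM of skin genes and 12940 CPM of blood genes, beside 12.4 CPM of actc1b, 2.27 CPM of tnnt3b and 0.721 CPM of smyhc2. Most of that skin sum came from the keratins krt91 and krt97, with 992.7 and 247.8 CPM. The skin marker icn had 45.28 to 98.59 CPM in females at 40 µg/L, against 49.25 to 71.17 CPM in female controls. Replicate 2 of males at 40 µg/L had 375.7 CPM of skin genes and 49.6 CPM of actc1b. In each of these libraries the skin sum and actc1b lay above all controls of its sex.

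**Figure D5:**
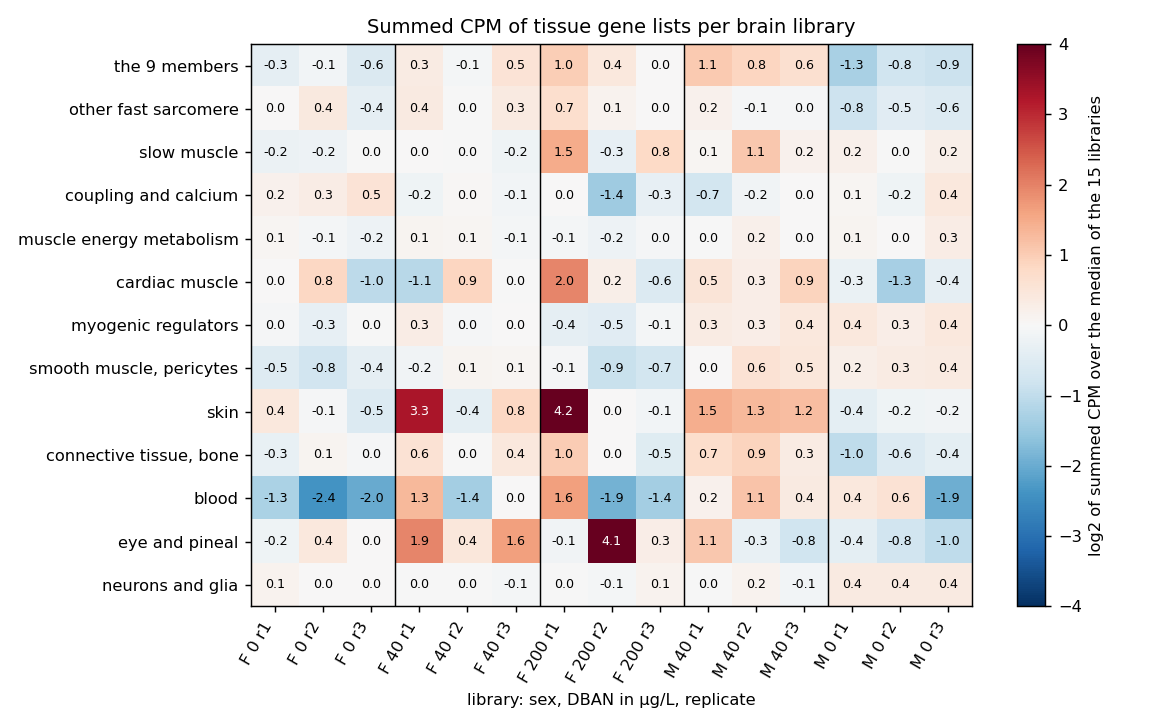
Summed CPM of the 9 muscle genes and of 12 other gene lists (rows) in each of the 15 libraries (columns: sex, DBAN in µg/L, replicate), as log2 of the sum over its median across the 15 libraries; red is above and blue below that median. Skin is deepest red in replicate 1 of females at 200 µg/L, where the sum was 2793 CPM, while neurons and glia stay pale in every library.

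Summed over the 9 genes, the level was 120.0, 141.7 and 102.9 CPM in females at 0 µg/L, 193.3, 144.4 and 223.1 CPM at 40 µg/L, and 304.5, 203.7 and 152.7 CPM at 200 µg/L. It was 318.4, 275.2 and 235.6 CPM in males at 40 µg/L, against 62.8, 88.1 and 84.1 CPM in male controls. The sum is weighted to eno3, myhz1.1 and ampd1. Over the other 6 genes it was 15.4, 4.43 and 5.30 CPM in females at 0 µg/L, 20.1, 20.5 and 10.7 CPM at 40 µg/L, and 128.5, 18.4 and 8.38 CPM at 200 µg/L. It was 28.5, 68.1 and 12.8 CPM in males at 40 µg/L, against 5.35, 8.19 and 6.79 CPM in male controls. The highest library was thus replicate 1 of males at 40 µg/L over all 9 genes, and replicate 1 of females at 200 µg/L over the 6. The first of these turns with the scaling: with library totals alone the sum over the 9 genes was 314.9 CPM in replicate 1 of females at 200 µg/L and 259 CPM in replicate 1 of males at 40 µg/L.

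Genes outside the set with the most similar pattern over the 15 libraries were ranked by Spearman's rho with the mean of log2(CPM + 1) over the 9 genes. Among 11591 genes the first was tnnt2e (rho 0.91), a troponin T of the slow list, with 32.6 CPM in replicate 1 of females at 200 µg/L and 23.8 CPM in replicate 2 of males at 40 µg/L. The collagen gene col1a2 and the septin gene sept8b were also among the first 10 (rho 0.90 each), as were eif3ha (rho 0.89), gadd45gb.1, glyctk, naca, mcl1a and nfkbiaa. Of the 76 genes of the other skeletal muscle lists that could be ranked, 52 (68.4%) had a rho above 0, against 46.0% of all genes ranked. Libraries share depth and scaling, so these values describe the 15 libraries and carry no test.

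In the deposited positions, of a genome build that the sources used here leave unnamed, none of the 9 genes overlaps another listed gene. actc1b lies at chr17:117110-122679, acta1b at chr13:24279061-24284437, tnnt3b at chr7:39444873-39460363, eno3 at chr23:44611857-44623771 and ampd1 at chr8:11080571-11111930. On chromosome 5 are myhz1.1 (32298624 to 32309131) and ckma (36832081 to 36837841), and on chromosome 3 are mylpfa (32813048 to 32818536) and pvalb1 (61193890 to 61203202). The parvalbumin genes pvalb5 and pvalb4 are the nearest neighbours of pvalb1, the nearer of them at 6011 bases. The fast troponin I genes tnni2b.1 and tnni2b.2 are the nearest neighbours of tnnt3b.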

How the data were processed

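Poly(A) RNA of zebrafish brain was sequenced after TruSeq V2 preparation with oligo-dT beads, per the labels' protocols. The authors deposited raw counts per gene in 2 tables of 14971 symbols, which share the 3 female control columns; all columns were used. The submitters' processing notes name STAR, StringTie, DESeq2, FastQC and Picard without versions or roles; build and strand setting are not given in the sources used here.

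Counts were tested in R 4.3.3 with edgeR 4.0.16 (filterByExpr, TMM, robust quasi-likelihood F test, Benjamini-Hochberg over all genes tested, threshold 0.05). The 9 female libraries, the 6 male libraries and, for contrasts between the sexes, the 12 libraries at 0 and 40 µg/L were fitted together. The standard error is the log2 fold change divided by the square root of F. On simulated data for males, 5 of 100 genes changed 2-fold and 68 of 100 changed 4-fold were recovered (12454 genes). In all simulations changes were placed only in genes above a set mean level, which leaves out rarer genes such as tnnt3b and acta1b. Far fewer genes were changed than the 1947 that passed in the real male data. The shares recovered need not hold there. Floors come from the counts of rare genes in each library, and standard errors include the spread between libraries. Alternatives were DESeq2 1.42.0, other scalings, filters and sets of libraries, counts divided by 4, the replicate number as a block and each library left out.

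The 9 genes were named in every comparison. From each other list, the 4 genes of highest mean level and any called gene could be named, and the 10 genes most like the set; other names were picked after their values were seen. The genes and lists were chosen with earlier results of these data known. A gene that this rule selects is not reported here. Sequences of the genes were not used here.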

Additional observations from a re-analysis of the deposited data

How the results depend on the processing

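Of the values for single muscle genes under other settings, 676 kept their direction and side of the threshold, 4 passed newly, 16 no longer passed and 20 changed sign; the causes were not tested. DESeq2 called 795 genes in females at 40 µg/L over controls (30 by edgeR), 327 at 200 µg/L (7), 1379 between the doses (495), 3072 in males (1947), 1644 between controls (579) and 456 genes whose response differed by sex (0). It called 1 muscle gene at each female dose over controls and 1 between controls. In each of these it gave no adjusted p for acta1b, ckma and tnnt3b, nor for actc1b at either female dose. In females at 40 µg/L the count was 58 with library totals alone, 98 without a filter, 1 with non-robust dispersion, 125 with counts divided by 4 and 19 with only the groups compared; that last setting gave 4 at 200 µg/L and 61 between the doses. With all 15 libraries in the fit, 3 genes passed for the difference between the sexes, and actc1b in males did not (adjusted p = 0.0672).

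Replicate numbers showed no clear pairing of the libraries, since same-numbered deviations correlated at only -0.131 to 0.0635. Males differed in 1 respect. Each of their libraries at 40 µg/L correlated best with the control of its own number, at 0.0344, 0.0305 and 0.0635. With the replicate block 0 genes passed in females at 40 µg/L, 2 at 200 µg/L, 76 between the doses, 973 in males and 283 between controls; 2 muscle genes passed in males, myhz1.1 and actc1b being lost (adjusted p = 0.0913 and 0.0678), and tnnt3b in females at 40 µg/L turned to 0.79. Library totals alone gave an adjusted p of 0.0574 for actc1b in males and, between controls, -0.073 for actc1b and -0.020 for eno3. That scaling moved the median of all genes in males to -0.55 from -0.16 on the log2 scale.

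Leaving out 1 library at a time gave 0 to 289 genes in females at 40 µg/L, 1 to 10 at 200 µg/L, 1 to 596 between the doses, 286 to 3144 in males, 0 to 904 between controls and 0 to 369 for the difference between the sexes. The muscle genes called in males numbered 1 to 4. Log2 fold changes crossed 0 for tnnt3b (-0.71 to 1.67) and myhz1.1 (-0.78 to 0.30) in females at 40 µg/L, and for ampd1 (-0.17 to 0.73) and myhz1.1 (-0.23 to 0.69) at 200 µg/L. They did so between the doses for acta1b (-0.73 to 0.61), actc1b (-1.45 to 1.79) and eno3 (-0.070 to 0.29), in males for acta1b (-2.77 to 0.51), and between controls for actc1b (-0.32 to 0.33), eno3 (-0.056 to 0.25) and tnnt3b (-0.49 to 1.89). The highest library's sum over the 9 genes was 2.09 times the median of the libraries, and 10.1 times without eno3, myhz1.1 and ampd1, a choice made after seeing the data. Floors of 2.70 to 12 CPM in males at 40 µg/L limit what can be said of mylpfa, ckma and pvalb1 there.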

Other observations

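Smooth muscle lines vessels and shares actin and myosin chemistry with skeletal muscle through other gene copies. Of 8 smooth muscle and pericyte genes tested in males 2 passed as higher and 1 as lower, beside 15.6% of all genes in either direction, with a median log2 fold change of -0.47 against -0.16 over all genes. The list summed to 151.4 to 227.4 CPM in males at 40 µg/L against 176.8 to 193.5 CPM in male controls, which overlap. tagln, an actin-binding protein of smooth muscle, had 35.2, 25.1 and 37.0 CPM in males at 40 µg/L, against 4.64, 8.11 and 8.11 CPM in male controls, and rose by 2.22 ± 0.35 on the log2 scale (edgeR adjusted p = 0.0129). myh11a, the smooth muscle myosin heavy chain, rose by 1.05 ± 0.27 (edgeR adjusted p = 0.0461), and abcc9, a potassium channel subunit of mural cells, fell by 0.73 (edgeR adjusted p = 0.0416). Replicate 1 of females at 200 µg/L was the highest library for 0 of the list's 8 genes with a highest library.

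Of 13 myogenic regulators, genes that control muscle identity, 1 passed in males, beside 15.6% of all genes. It was mef2ca, a transcription factor also used by neurons, which had 6.81, 7.10 and 4.85 CPM at 40 µg/L against 14.9, 20.6 and 20.2 CPM at 0 µg/L and fell by 1.57 (edgeR adjusted p = 0.0362). That list summed to 277.6 to 309.1 CPM in males at 40 µg/L against 278.6 to 308.8 CPM in male controls. Between female doses casq2, a calcium store protein of slow and cardiac muscle, was higher by 2.63 ± 0.58 at 200 µg/L than at 40 µg/L (edgeR adjusted p = 0.0372). It had 36.6, 12.3 and 28.6 CPM at 0 µg/L, 4.38, 4.03 and 6.81 CPM at 40 µg/L, and 45.2, 9.76 and 39.1 CPM at 200 µg/L, so that the levels at 200 µg/L overlapped the controls and those at 40 µg/L lay below both. The fast tropomyosin gene tpma was lower in control females than in control males by a log2 difference of -2.16 ± 0.39 (edgeR adjusted p = 0.0172), with 6.15, 5.69 and 5.50 CPM in females against 29.9, 25.7 and 22.4 CPM in males. The eye and pineal list was highest in a different library, replicate 2 of females at 200 µg/L, where it summed to 1407 CPM. Of this sum exorh, the pineal opsin gene, gave 914.8 CPM. In the other 14 libraries the list summed to 39.7 to 305.2 CPM.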
